A study of Mus musculus with 4 samples.

Results

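The solute carrier families Slc1, Slc3, Slc6, Slc7, Slc36, Slc38 and Slc43, which hold most of the amino acid transporters of the cell membrane and the lysosome, were followed in LPS-stimulated mouse bone marrow derived macrophages with and without the protein phosphatase subunit PP2ACα. Members were taken by gene symbol, and the symbol search left out Slc7a1, Slc7a2 and Slc7a11. It found 61 genes among the 22180 with a feature of their own on the array. Of these, 58 encode members of the carrier families and 3 are opposite-strand names, Slc7a6os, Slc36a1os and Slc6a19os, which the search takes in by spelling. Slc6a9 has only a feature shared with another gene and is not among them.

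RNA was measured on 4 Affymetrix whole-transcript arrays, 2 of control and 2 of knockout macrophages. The macrophages, grown from marrow over 6 days with L-cell supernatant as a source of macrophage growth factor, had all received 100 ng/ml of lipopolysaccharide (LPS), the bacterial cell wall component that Toll-like receptor 4 detects, for 2 hours, so the comparison asks how transporter transcripts differ without the phosphatase subunit in stimulated cells and not how they respond to LPS. Control cells carried the floxed PP2ACα allele, written PP2ACαfl/fl, without Cre, and knockout cells were PP2ACαfl/fl;lyM-Cre, in which Cre removes exon 1 in myeloid cells. The labels do not spell lyM out, do not give the age or sex of the mice, and mark the arrays of a genotype as biological replicates with no word on how many mice gave cells, so p-values measure the spread between these arrays, which may be technical.

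Amino acids cross membranes through carriers that differ in substrate and in driving force. Slc3a2 encodes the heavy chain CD98, which pairs with light chains of the Slc7 family; the light chain LAT1, encoded by Slc7a5, brings in leucine and other large neutral amino acids in exchange for glutamine. Slc1a5 encodes ASCT2, a sodium-dependent exchanger of glutamine and other small neutral amino acids, and the Slc38 and Slc36 families include carriers that move amino acids in with sodium or out of lysosomes with protons. Activated macrophages draw on these carriers for protein synthesis and for signalling through the kinase complex mTORC1.

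Values are log2 expression values from robust multi-array averaging (RMA), and a difference of 1 is a change of 2-fold. Levels of different genes are not set against each other, since each feature has its own probes. A gene was tested where its mean over the 4 arrays reached 3.53, the median over all features, and “rose”, “fell” and “called” are used where the limma p-value, adjusted by the Benjamini-Hochberg method over all 12542 tested genes, was under 0.05. The medians of the 4 arrays lay between 3.50 and 3.57, pairs of arrays correlated at r = 0.986 to 0.990 across features, and their number limits the precision. The targeted gene Ppp2ca read 8.25 and 7.59 in control and 4.36 and 3.39 in knockout arrays, a difference of -4.04 (SE 0.36, limma adjusted p = 0.0076, and 0.0503 without control replicate 1); where its probes lie relative to exon 1 was not analysed. Of 9 macrophage markers, 1 was called higher, Fcgr1, and 1 lower, Lyz2, the lysozyme gene, at -5.19; Fcgr1 missed the threshold with any array left out (0.055 to 0.097). The mean of the macrophage markers was 10.81 to 10.91 in control and 10.42 to 10.46 in knockout arrays; without Lyz2, the mean of the other 8 was 10.67 to 10.75 in control and 10.88 to 10.89 in knockout arrays. Among lists of markers for neutrophils, T and NK cells, B cells, dendritic cells, stromal cells and erythroid or megakaryocytic cells, which had 15 tested genes in all, the dendritic cell marker Itgax fell by 2.54 and no other was called. The mean of the dendritic cell markers was 4.31 in both control arrays and 3.97 and 4.02 in the knockout arrays; without Itgax, the mean of the other 5 was 3.60 and 3.61 in control and 3.69 and 3.78 in knockout arrays. Only the knockout cells carried lyM-Cre, and an effect of the Cre construct itself on Lyz2 was not tested. The part of these shifts in the transporter values was not tested, and fewer cells of a type cannot be told apart from less RNA per cell.

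Of the 28 genes that passed the filter, 2 fell and none rose, Slc7a5 and Slc1a5. That is 7.14% of those tested, against 6.79% of all tested genes, a share near the background. In the lower direction alone the background was 3.49% and in the higher direction 3.3%. At an unadjusted limma p under 0.05 were 5 of the 28, or 17.9%, where 24.7% of all tested genes were. The median difference of the 28 was -0.01, beside 0.01 for all tested genes. Groups did not overlap for 17 of them, or 60.7%, where 55.3% of all tested genes did not overlap. Of the 17, 7 were higher and 10 lower in knockout, beside 28.8% higher and 26.5% lower of all tested genes. A cutoff of 1.5-fold, which the design text names, applied here to group means without a test, was passed by the same 2 genes, where 5.24% of all tested genes passed it. The unadjusted 95% interval of the difference lay within 1.5-fold in both directions for 21 of the 28. The 7 whose interval reached that size were Slc7a5, Slc1a5, Slc1a4, Slc1a7, Slc36a1, Slc6a5 and Slc6a20a.

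**Figure D1:**
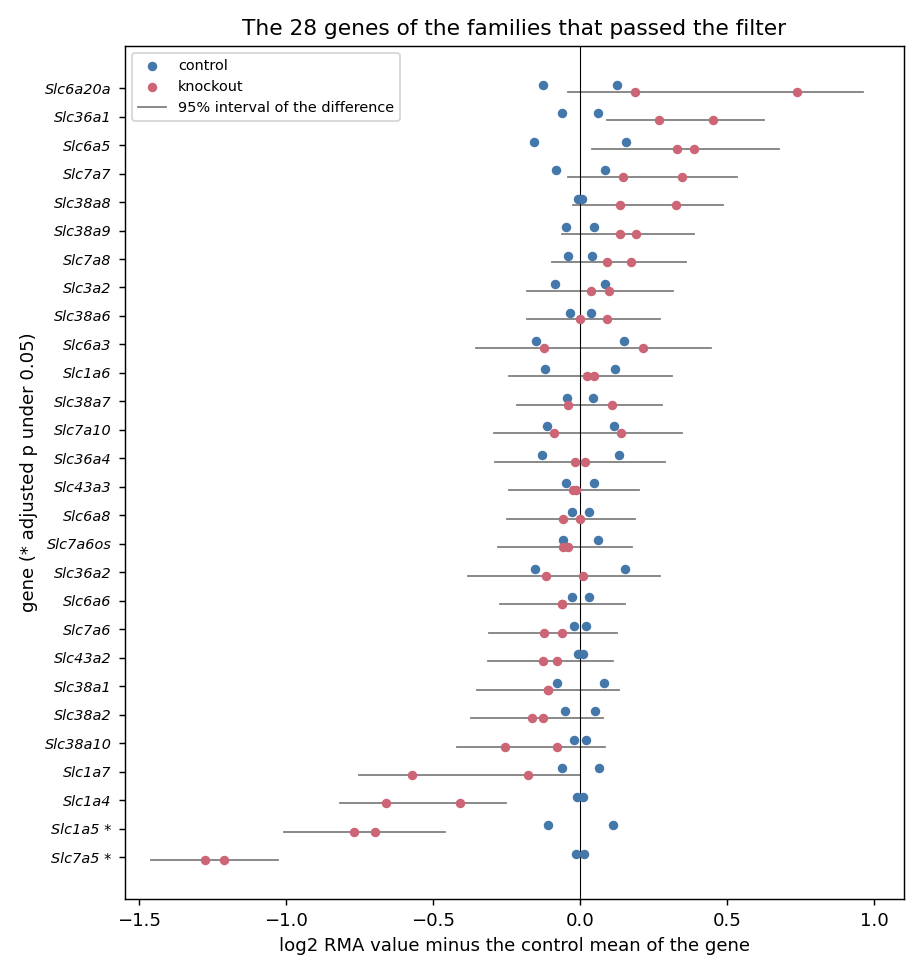
Values of the 28 tested genes on each array, as the log2 RMA value minus the mean of the 2 control arrays of that gene. Blue points are control arrays, red points knockout arrays, grey lines the unadjusted 95% interval of the knockout minus control difference from limma, and an asterisk marks an adjusted p under 0.05. Only the intervals of Slc7a5 and Slc1a5 belong to called genes, and most of the other points lie within 0.4 of 0.

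Among the light chains that pair with CD98, Slc7a5 was lower in knockout macrophages. It read 7.68 and 7.71 in the control arrays and 6.48 and 6.42 in the knockout arrays. The arrays of a genotype lay close together and the groups were 1.20 apart at their nearest. The difference was -1.25 (SE 0.09, limma adjusted p = 0.0048), which is 2.37-fold lower, from 7.69 ± 0.02 to 6.45 ± 0.05 (mean ± SD, n = 2 each). With each array left out in turn, its adjusted p was 0.0337 to 0.0447. Every such fit has 1 array in one genotype, which is assumed to vary like the 2 of the other, so these values say little about stability. It missed the threshold when each of the 20673 deposited features that passed the filter was tested on its own, named or not (adjusted p = 0.061).

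Of the heavy chain and the other light chains within the symbol search, none was called; the light chain Slc7a11, outside the search, fell and is given further on. Slc3a2, the gene of CD98 itself, read 10.83 and 10.66 in control and 10.79 and 10.85 in knockout arrays, so the groups overlapped. Its difference of 0.07 had an interval from -0.18 to 0.32. Slc7a8, which encodes LAT2, a light chain with substrates like those of LAT1, read 11.44 and 11.35 in control and 11.49 and 11.57 in knockout arrays. The knockout arrays were both above the control arrays, by little, and the difference of 0.13 (SE 0.09) did not pass (limma adjusted p = 0.43). Slc7a7 and Slc7a6 encode light chains that exchange cationic for neutral amino acids. Slc7a7 read 6.77 and 6.93 in control and 6.998 and 7.20 in knockout arrays, a difference of 0.25 (interval -0.04 to 0.54, limma adjusted p = 0.26). Slc7a6 read 6.71 and 6.76 on the control arrays and 6.68 and 6.61 on the knockout arrays, a difference of -0.09 (interval -0.31 to 0.12). Neither pair of groups overlapped, but both gaps were under 0.1. Slc7a10, the light chain of a carrier for small neutral amino acids, lay near the filter at 4.04 and 4.06 on average and differed by 0.03. The opposite-strand gene Slc7a6os, at 7.02 in control and 6.97 in knockout, differed by -0.05. The other heavy chain, Slc3a1, known from kidney and gut, did not reach the filter, nor did the light chains Slc7a9, Slc7a12, Slc7a13 and Slc7a15 or Slc7a3, Slc7a4 and Slc7a14.

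**Figure D2:**
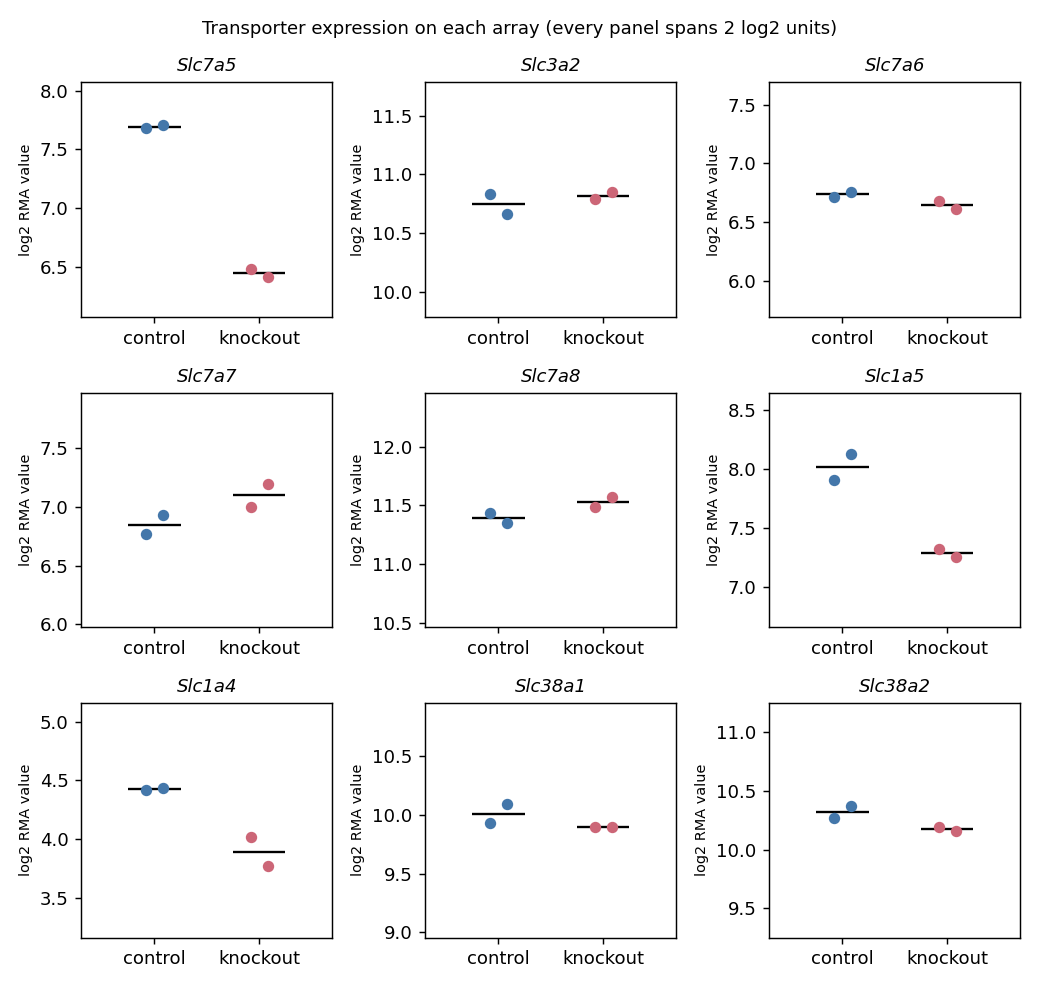
Log2 RMA values of 9 transporter genes on each array, with control arrays in blue, knockout arrays in red and a line at the mean of each pair. Every panel spans 2 log2 units on its own scale, so heights can be compared within a panel and not between panels. The groups are far apart for Slc7a5 and Slc1a5, and 0.40 apart for Slc1a4, which was not called. They are close or overlapping for Slc3a2, Slc7a6, Slc7a7, Slc7a8, Slc38a1 and Slc38a2.

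In the Slc1 family, the 2 exchangers of neutral amino acids were both lower in knockout, and Slc1a5 passed the test. Slc1a5 read 7.91 and 8.13 in control and 7.32 and 7.25 in knockout arrays, and the groups were 0.59 apart. It fell by 0.73 (SE 0.11, 1.66-fold lower, limma adjusted p = 0.025), from 8.02 ± 0.16 to 7.29 ± 0.05 (SD, n = 2 each). A dimmer second feature of the gene read 4.92 and 4.49 in control and 3.97 and 4.16 in knockout arrays, a difference of -0.64 in the same direction. The call rested on all 4 arrays: leaving out control replicate 1 gave Slc1a5 an adjusted p of 0.057, and leaving out control replicate 2 gave 0.080. Leaving out knockout replicate 1 gave 0.115, and leaving out knockout replicate 2 gave 0.153. It was 0.056 with no filter on low values and 0.121 with every feature tested on its own.

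Slc1a4, the gene of ASCT1, an exchanger of serine, alanine and threonine, read 4.42 and 4.44 in control and 4.02 and 3.77 in knockout arrays. Both knockout arrays were below both control arrays, but the values lie near the filter level, where differences can be understated. Its difference of -0.53 (SE 0.11) missed the threshold (limma adjusted p = 0.054). It passed after quantile normalization (0.0496) and after median centring of the arrays (0.046). The glutamate carriers of the family, which clear the transmitter glutamate in nerve tissue, were dim. Slc1a7 read 3.80 and 3.93 in control and 3.29 and 3.69 in knockout arrays, a difference of -0.38 with an interval from -0.75 to 0.00. Slc1a6 differed by 0.04 with overlapping groups, and Slc1a1, Slc1a2 and Slc1a3 did not reach the filter.

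**Figure D3:**
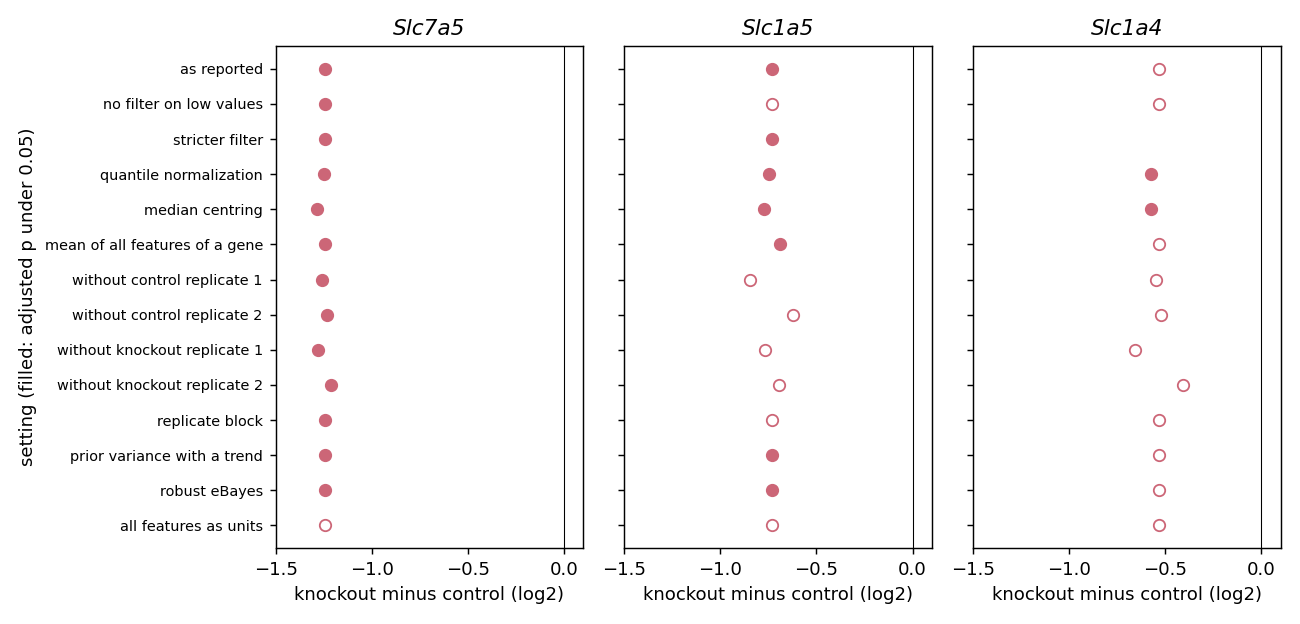
Knockout minus control difference (log2) of Slc7a5, Slc1a5 and Slc1a4 as reported and under each alternative setting, 1 setting per line. Filled points have an adjusted p under 0.05 and open points do not; a missing point means that the gene was below the stricter filter. All points lie below 0, Slc7a5 is filled in every setting but the test of all features as units, and Slc1a5 is open with any array left out.

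The glutamine carriers of the Slc38 family differed little. Slc38a1 and Slc38a2 encode the sodium-coupled carriers SNAT1 and SNAT2 of the cell membrane. Slc38a2 read 10.27 and 10.37 in control and 10.20 and 10.16 in knockout arrays, a difference of -0.15 (interval -0.37 to 0.08). Slc38a1 read 9.93 and 10.09 against 9.90 and 9.90, a difference of -0.11 (interval -0.35 to 0.13). In both genes the knockout arrays lay just below the control arrays, by less than 0.1, and neither passed (limma adjusted p = 0.37 and 0.54). Slc38a9, which encodes a lysosomal carrier that reports arginine to mTORC1, read 7.72 and 7.81 in control and 7.90 and 7.95 in knockout arrays. Its difference of 0.16 (SE 0.09) did not pass (limma adjusted p = 0.32). Slc38a7, known as a lysosomal exporter of glutamine and asparagine, differed by 0.03 and Slc38a6 by 0.05, both with overlapping groups. Slc38a10 differed by -0.17, by the same amount on its second, dimmer feature. Slc38a8, at a mean of 3.85 in control and 4.08 in knockout, had the largest difference of the family, 0.23, and was near the filter. Slc38a3, Slc38a4, Slc38a5 and Slc38a11 did not reach it.

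Of the proton-coupled Slc36 carriers, Slc36a1 had the highest difference. It encodes PAT1, which moves small amino acids out of lysosomes, and read 6.64 and 6.76 in control and 6.97 and 7.15 in knockout arrays. The groups did not overlap, and the difference of 0.36 (SE 0.11, interval 0.09 to 0.63) did not pass over all genes (limma adjusted p = 0.11). Slc36a4 has 2 features that disagreed. The brighter read 9.63 and 9.37 in control and 9.48 and 9.52 in knockout arrays, a difference of -0.0009. The dimmer read 8.46 and 8.68 in control and 8.22 and 8.12 in knockout arrays, a difference of -0.40, which did not pass among all features (limma adjusted p = 0.24). Slc36a2 differed by -0.05 with overlapping groups, and Slc36a3 and Slc36a1os were below the filter.

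Slc43a2 encodes LAT4, which lets large neutral amino acids pass without exchange or sodium. It read 9.98 and 9.96 in control and 9.89 and 9.85 in knockout arrays, a difference of -0.10 (interval -0.31 to 0.11, limma adjusted p = 0.51). Slc43a3, known as a carrier of purine bases, differed by -0.02, and Slc43a1 did not reach the filter.

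The Slc6 family carries transmitters, osmolytes, creatine and amino acids with sodium and chloride. Of its 20 genes 5 passed the filter and none was called. Slc6a6, the taurine transporter, read 11.36 and 11.30 in control and 11.27 on both knockout arrays, a difference of -0.06 (interval -0.27 to 0.15). Slc6a8, the creatine transporter, differed by -0.03 (interval -0.25 to 0.19), with overlapping groups. The other 3 lay near the filter. Slc6a20a, a carrier of proline and related imino acids, read 3.83 and 3.58 in control and 3.89 and 4.44 in knockout arrays. Its difference of 0.46, the highest of the 28 genes, rested on knockout replicate 2, without which it was 0.19, and it did not pass (limma adjusted p = 0.23). Slc6a5, a glycine transporter of nerve cells, differed by 0.36 (limma adjusted p = 0.16) and the dopamine transporter Slc6a3 by 0.04.

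The 33 genes below the filter had means between 2.01 and 3.52, and 15 of them belong to the Slc6 family. Their differences ran from -0.24 for Slc6a13, a GABA transporter, to 0.39 for Slc7a14. Slc7a14 read 3.26 and 3.21 in control and 3.66 and 3.58 in knockout arrays, and its groups did not overlap. In the fit with no filter on low values none of the 33 passed; the lowest limma adjusted p was 0.15, for Slc7a14, the 1 gene of the 33 with an unadjusted p under 0.05.

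**Figure D4:**
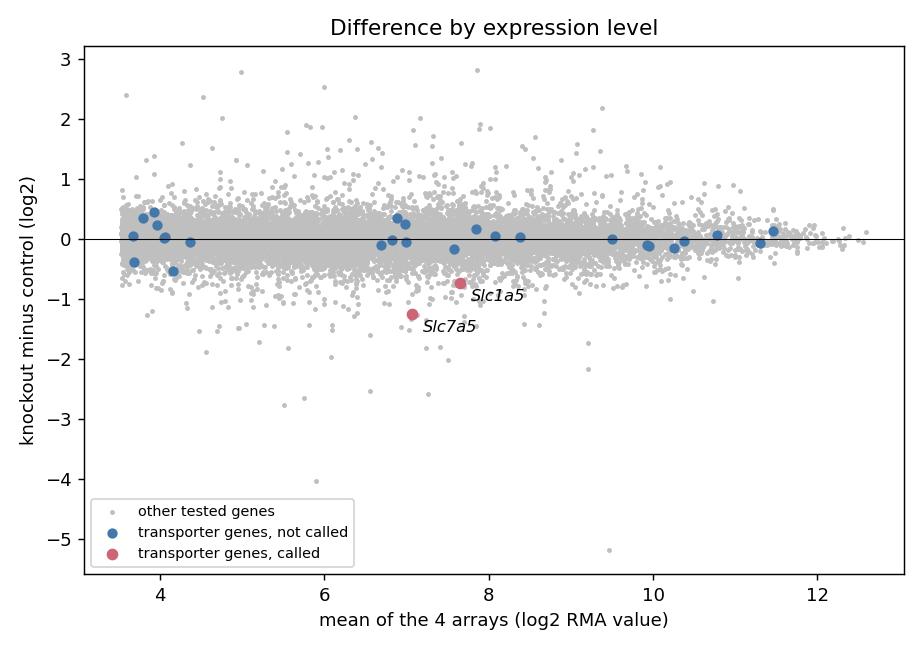
Knockout minus control difference (log2) against the mean of the 4 arrays (log2 RMA value) for all 12542 tested genes. Grey points are other genes, blue points transporter genes that were not called and red points the 2 that were; apart from Slc7a5 and Slc1a5, the genes with a mean of at least 5 lie between -0.17 and 0.36.

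Promoter letters were looked up for the composite site that the stress factor ATF4 and C/EBP proteins bind at many amino acid response genes. RefSeq's promoter table for GRCm38.p6 held 45 of the 61 genes, 21 of them tested. Entries for Slc7a5 and Slc1a5 were missing. The 8-letter motif TGATGNAA was searched on both strands in the 250 bases before each start. It was found in 3.45% of 32851 such windows of all genes. Of 28 windows of tested transporter genes, 2 held it, both of Slc7a7, which was not called. The window of Slc7a11, which the symbol search left out and which fell, held 2 matches. The windows of Slc7a1, which was also left out and also fell, held none. The windows of 3 genes are shown: the exchanger gene that missed the threshold narrowly, the CD98 gene that pairs with Slc7a5, and the Slc7a7 window farthest from the gene body. Capitals mark the motif, and lower case alone means that these letters were not found in the window.
Slc1a4, chr11:20332714-20332963, minus strand: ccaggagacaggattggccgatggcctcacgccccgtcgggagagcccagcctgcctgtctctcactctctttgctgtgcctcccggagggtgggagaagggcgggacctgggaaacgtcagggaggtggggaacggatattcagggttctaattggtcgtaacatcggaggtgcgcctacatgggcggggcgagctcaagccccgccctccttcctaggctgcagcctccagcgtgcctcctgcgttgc
Slc3a2, chr19:8713898-8714147, minus strand: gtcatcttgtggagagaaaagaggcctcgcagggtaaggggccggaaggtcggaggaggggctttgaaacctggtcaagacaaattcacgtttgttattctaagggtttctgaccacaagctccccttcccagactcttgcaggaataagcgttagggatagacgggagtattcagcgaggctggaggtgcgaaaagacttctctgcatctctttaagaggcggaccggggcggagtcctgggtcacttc
Slc7a7, chr14:54417945-54418194, minus strand: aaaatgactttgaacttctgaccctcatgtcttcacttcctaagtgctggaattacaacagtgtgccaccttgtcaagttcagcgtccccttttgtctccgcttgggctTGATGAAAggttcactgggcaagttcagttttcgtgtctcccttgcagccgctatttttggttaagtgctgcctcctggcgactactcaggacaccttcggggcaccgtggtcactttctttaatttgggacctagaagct
The match in Slc7a7 begins 141 bases before that start. A match is a description of letters and not of binding.

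The 3 carriers that the symbol search left out all fell. They belong to a list of 14 tested amino acid and peptide carriers from outside the search. Of the 14, these 3 fell and none rose, or 21.4%, beside 6.79% of all tested genes, with a median difference of 0.03. Slc7a11, the light chain of the cystine and glutamate exchanger, which also pairs with CD98, differed by -1.60. The cationic amino acid transporters Slc7a2 and Slc7a1, which bring in arginine, differed by -1.43 (SE 0.10, limma adjusted p = 0.0048) and -0.99 (SE 0.11, limma adjusted p = 0.012). With an array left out, where 1 genotype has a single array, Slc7a11 and Slc7a2 passed in all 4 fits and Slc7a1 only without control replicate 2. With all features as units 0 of the 3 passed in limma.

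Lists of genes that act with these carriers were counted the same way. Of 20 tested enzymes that use or make amino acids, 8 fell and none rose, with a median of -0.14. Of all tested genes, 6.79% were called in either direction. Among the 8 was Phgdh, which averaged 4.27 in control and 3.51 in knockout, below the filter level of 3.53. With no filter on low values 3 of 24 enzymes were called, and 6 of 15 with a mean of at least 5 required. The largest falls were those of Psat1, of serine synthesis, at -1.17, Aldh18a1, of proline synthesis, at -1.08, asparagine synthetase (Asns) at -0.97 and arginase (Arg1) at -0.89. Without control replicate 1 or knockout replicate 1 the count of enzymes was 0, without control replicate 2 it was 1, Arg2, and without knockout replicate 2 it was 2, Psat1 and Aldh18a1. In each case 8 or 9 of the 20 enzymes had an unadjusted limma p under 0.05, where 15.6% to 24.3% of all tested genes did. Of 22 tested genes on a list around the GCN2 and ATF4 response to amino acid shortage, 2 fell and 3 rose, with a median of -0.07. That is 22.7% called, beside the same 6.79%. The list is wider than that response, since it also holds Eif2ak2. Chac1, which breaks down glutathione, at -0.99, and Asns, shared with the list of enzymes, fell. Eif2ak2, the kinase PKR that senses double-stranded RNA, at 0.73, the lipoprotein receptor gene Vldlr at 0.51 and Ddit3, the gene of CHOP, at 0.49 rose. Vldlr averaged 3.46 in control, below the filter level of 3.53, and 3.97 in knockout. With no filter on low values 2 of the 22 were called, Eif2ak2 and Asns, and 7 of 19 with a mean of at least 5 required. The difference of Atf4 was -0.32, which did not pass (limma adjusted p = 0.11). Amino acid sensing by mTORC1 had 36 tested genes. Bmt2, whose protein senses S-adenosylmethionine, rose by 0.62 (limma adjusted p = 0.020) and none fell, with a median of -0.01. That is 2.78% called, beside the same 6.79%. The count was 4 of 33 with a mean of at least 5 required and 3 of 36 with a variance trend on expression. Over all genes, 1475 and 1584 were called in those settings. The leucine sensor gene Sesn2 differed by -0.17 with overlapping groups. Sesn3 had the largest difference of the 36, 0.66, without overlap of the groups, and missed the threshold (limma adjusted p = 0.055). The limma calls of both these lists, 5 and 1, went to 0 with any of the 4 arrays left out, with 8 to 11 of 22 and 3 to 10 of 36 genes at an unadjusted p under 0.05, beside the same 15.6% to 24.3% of all tested genes.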

How the data were processed

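The authors deposited 1 table of log2 values, 41345 features by 4 arrays, made by RMA from array intensities with background adjustment and normalization between arrays, per the series' design text; RMA and oligo are named, with no version, in the submitters' processing notes, and the genome build is not given in the sources used here. Normalization between arrays removes a change of total RNA per cell. Each array received biotin-labelled cDNA from 400 ng of RNA, per the labels' protocols.

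The platform's probe annotation gave 23521 features a single symbol and 1814 several; 16010 had none and stay unnamed here. A gene with several features was read from the brightest by mean, and probes of close relatives may read each other's transcripts. The genotype labels gave the groups. The comparison used lmFit and eBayes of limma 3.58.1 (R 4.3.3; constant prior variance, two-sided, no block), with 2 residual and 3.51 prior degrees of freedom. On simulated data with 12542 genes, 200 of them changed, this test found 15.5% of 1.5-fold changes, 81.3% of 2-fold changes and 94.6% of 3-fold changes. Of its calls, 4.86% were false. The simulation follows limma's own model and changed fewer genes than the 852 called in these data.

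The genes, lists and tests were chosen with earlier results of these data known. Named were all called members and a list of 15 genes in any case (Slc6a9 had no feature of its own). Also named were the tested member with the largest difference in each of the 7 families and up to 4 called genes of each other list. Phgdh, Arg2, Ddit3, Atf4, Sesn2, Sesn3, the remaining members and the markers were named outside that rule. Alternatives changed the filter, the scaling, the feature, the arrays, the block, the variance model, the call rule and, after the data were seen, the unit tested.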

Additional observations from a re-analysis of the deposited data

How the results depend on the processing

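Of 852 called genes, the count was 333 with no filter on low values, 1475 with a mean of at least 5 required, 1584 with a variance trend on expression and 15 of 20673 with all features as units, an alternative chosen after the data were seen; with an array left out it was 96 to 174. The count of called transporters, 2, was 1 with no filter and with each array left out (Slc7a5 in each case), and 0 with all features as units (4 at an unadjusted p under 0.05, or 14.3%, against 17.6% of all features), where limma gave Slc7a5 an adjusted p of 0.061 and none of the 4 other lists had a call. It was 3 after quantile normalization or median centring, with Slc1a4 added. Deviations of same-numbered arrays correlated at -0.036 and the labels name no shared batch. With 2 arrays a group, this cannot show whether the replicate numbers pair the arrays. With the replicate number as a block, 312 genes and 1 transporter, Slc7a5, were called. The median difference of the transporters was 0.023 with no filter, over all 61, and -0.076 to -0.0010 with an array left out. Among the 16 named members, the sign turned in 1 case, Slc3a2, whose difference ran from -0.016 without control replicate 2 to 0.153 without control replicate 1. In the simulation, where 200 genes changed, 1.5-fold changes were seldom called. In these data, 547 of the 657 genes with group means at least 1.5-fold apart were called, a set that includes larger changes. Differences of dim genes can be understated. The causes of these shifts were not tested.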
